A study of Gallus gallus with 4 samples.

Results

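Eosinophil-like cells of chicken blood were defined here as cells with DACH1 of at least 3, IL5RA and PIP5K1B summing to at least 2, CTSG below 10, no MMR1L4, and PAX5 and EBF1 summing to less than 3 in the deposited scores. The rule was met by 146 of 12042 cells, 70 in library 1, 54 in library 2 and 22 in library 3. Single-cell 3′ RNA libraries were prepared from the blood leukocytes of 4 healthy laying hens, 24 weeks of age, labelled as the strain Bovans Robust, whereas the methods of the study name a Dekalb White Leghorn-type hen. All hens belonged to a single untreated group, red blood cells had been reduced on Ficoll, and thrombocytes had been reduced with an antibody to CD41/61. Of the 4 entries, the third and the fourth had 4890 barcodes in common. Only the third was kept, which leaves 3 libraries. Other pairs of libraries shared between 1 and 9 barcodes, and no member shared its barcode with a cell of another library.

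Eosinophils are granulocytes of blood and tissue that are known in mammals for granules of cationic proteins, for their release of lipid mediators, and for dependence on interleukin-5. The interleukin-5 receptor pairs the specific subunit IL5RA with the common beta subunit CSF2RB and signals through JAK and STAT proteins and the kinases LYN and SYK. In chickens, eosinophils are few in blood, and most blood granulocytes are heterophils, the avian counterpart of neutrophils. The name used here rests on RNA only, since no surface stain for eosinophils was part of the data.

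The members were selected on the measured values of DACH1, IL5RA, PIP5K1B, CTSG, MMR1L4, PAX5 and EBF1, so the levels of these genes are a description without a test. DACH1 (dachshund family transcription factor 1) lies on chromosome 1 from 156610085 to 156979403 in GRCg7b. Scores of all cells of a group were summed per library and scaled to 10000, and a level below is such a value per 10000, not corrected for gene length. The level of DACH1 was 55.1, 39.4 and 49.0 in the members of libraries 1 to 3, against 0.259, 0.329 and 0.286 in all remaining cells. IL5RA, on chromosome 12 from 18269804 to 18285446 and overlapping the annotated span of CNTN4, had levels of 12.6, 8.78 and 9.21 in members and at most 0.055 in remaining cells. PIP5K1B, a kinase that makes phosphatidylinositol 4,5-bisphosphate, lies on chromosome Z from 35086382 to 35181075 and had levels of 17.6, 16.2 and 14.6 in members. Per cell, the median DACH1 score was 9, 7 and 8.5 in libraries 1 to 3. IL5RA was listed at 0 in 41 members and PIP5K1B in 29, and 76 members had both.

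The edge of the rule was described with RPS6KA2, a ribosomal S6 kinase acting downstream of ERK, which the rule did not use. RPS6KA2 had the largest difference between these same members and the remaining cells. Its high scores in members are therefore not independent of the rule. The 10 members with DACH1 of 3 had a median RPS6KA2 score of 45.5, and the 59 members with DACH1 of 10 or more a median of 43. Just outside, 15 cells with DACH1 of 1 or 2 that met the other limits had a median of 40, within the range of the members. The 77 cells with DACH1 of at least 3 but IL5RA and PIP5K1B summing to 0 or 1 had a median of 27, and RPS6KA2 was above 0 in 67.5% of them. In 57 cells with DACH1 of 1 or 2 and little IL5RA or PIP5K1B, the median was 0 and RPS6KA2 was above 0 in 15.8%. Thus cells with RPS6KA2 as high as in members also lay outside the limits on DACH1, IL5RA and PIP5K1B. Of 216 cells with an RPS6KA2 score of at least 20, 133 were members, 46 had DACH1 of at least 3 without meeting the rule, 21 had DACH1 of 1 or 2, and 16 had no DACH1.

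**Figure D1:**
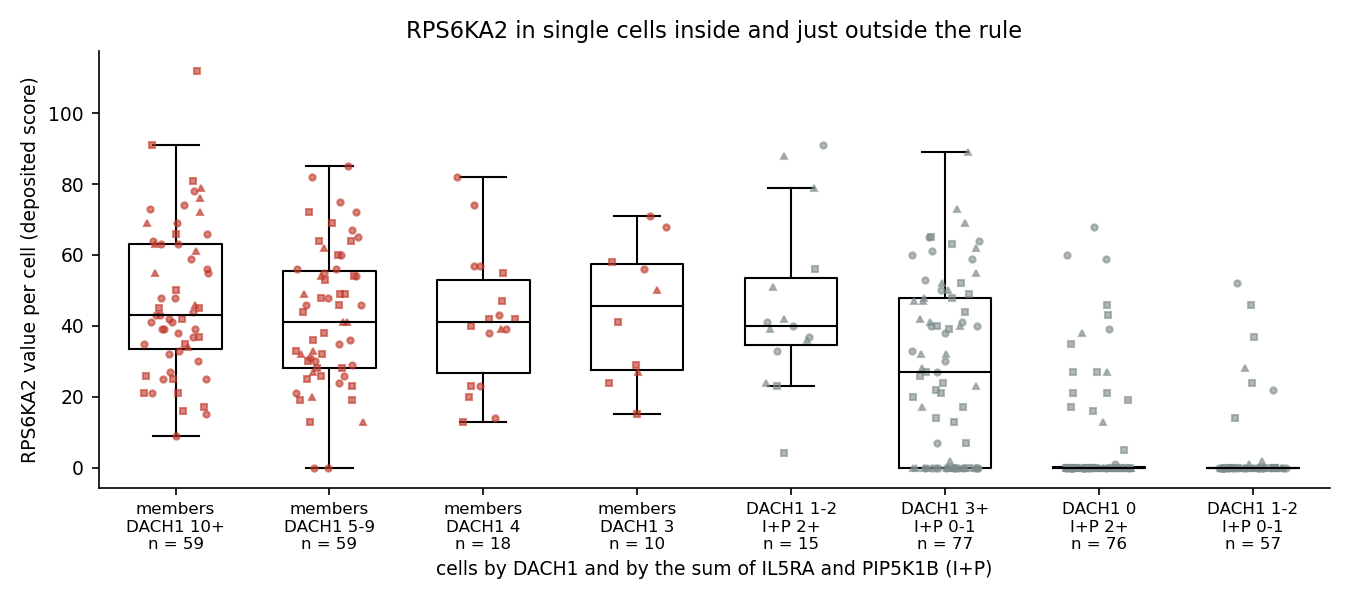
RPS6KA2 score of single cells (y axis) in members by DACH1 score and in cells just outside the rule (x axis, I+P for the sum of IL5RA and PIP5K1B). Boxes give the median and quartiles, whiskers reach the last cell within 1.5 times the box, and circles, squares and triangles are cells of libraries 1, 2 and 3; the members' medians lie between 41 and 45.5, and the cells with DACH1 of 1 or 2 that met the other limits have a median of 40.

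The share of eosinophil-like cells differed between hens by more than counting error. It was 1.57% (95% Clopper-Pearson interval 1.23 to 1.98) of 4452 cells in library 1, 2.00% (1.51 to 2.60) of 2697 cells in library 2, and 0.45% (0.282 to 0.680) of 4893 cells in library 3, with a mean of 1.34% ± 0.80 (SD, n = 3). Library 3 was the lowest, and its interval did not overlap those of libraries 1 and 2. The intervals cover counting error only, and fewer captured cells and fewer cells in blood cannot be told apart. Without the minimum on IL5RA and PIP5K1B the mean share was 2.00%, and with DACH1 of at least 5 it was 1.07%. Library 3 was lowest under both. Without that minimum the shares were 2.18%, 2.74% and 1.06% in libraries 1 to 3. The cells then numbered 97, 74 and 52, in place of 70, 54 and 22. Library 3 thus gained the most in proportion, and the size of the difference between hens depended on this limit. The interval of library 3 (0.795 to 1.39) still did not overlap those of libraries 1 and 2. The study reported similar proportions of its cell groups in all its hens.

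Members held fewer genes per cell than monocytes, which were defined as cells with MMR1L4 of at least 1 and LY86, CD14 and CSF3R summing to at least 2. The median number of genes per cell was 593, 585 and 631.5 in members and 1193, 1218 and 1233 in the 247, 439 and 688 monocytes. The ranges of the library medians did not overlap, and the difference of the means was -611.5 genes (exact permutation test, two-sided, p = 0.1, the smallest that 3 against 3 unpaired libraries allow). Both medians of a library come from the same hen, and the test did not use this pairing. The ribosomal protein genes took a median of 1.38%, 1.30% and 1.07% of the score in members and 1.71%, 4.94% and 3.95% in monocytes, again without overlap (exact permutation p = 0.1). Mitochondrial genes took 9.05%, 11.9% and 7.16% in members, below 15.9%, 12.4% and 14.9% in monocytes (exact permutation p = 0.1), and did not separate members from all remaining cells (exact permutation p = 0.8). Among genes under 1 per 10000, the mean of the scores above 0 was 1.74 in members, 1.24 in remaining cells and 1.06 in monocytes.

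**Figure D2:**
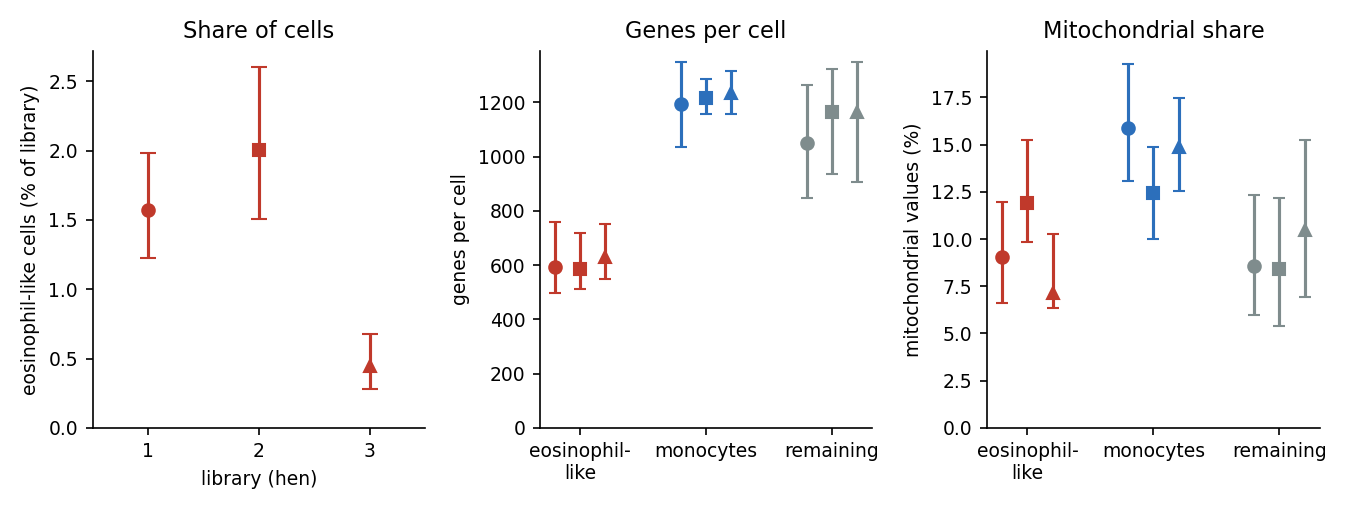
Left, share of eosinophil-like cells in each library (y axis, %, with 95% Clopper-Pearson intervals). Middle and right, median genes per cell and median percent of mitochondrial scores in members, monocytes and all remaining cells of libraries 1 (circle), 2 (square) and 3 (triangle), with quartiles as bars; members lie near 600 genes per cell in each library, and monocytes near 1200.

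Of the genes that the study associated with eosinophils, the 4 that the rule did not use were all higher in members than in all remaining cells and than in monocytes. The study chose these genes on the same cells, so they are no independent evidence of the name. MCTP2, a calcium-binding membrane protein on chromosome 10 from 14984503 to 15097515, had levels of 26.5, 23.6 and 29.2 in members and 2.03, 1.49 and 1.90 in remaining cells. The groups did not overlap (14.6-fold, log2 difference 3.80 ± 0.16 SE, limma adjusted p = 0.00017). FRY, a large microtubule-binding protein, had levels of 22.0, 23.8 and 19.5 in members, 1.48, 1.94 and 2.12 in remaining cells and 6.24, 4.94 and 6.44 in monocytes. FCER1G, the signalling chain shared by Fc receptors, was at 7.61, 6.65 and 7.86 against 0.255, 0.846 and 0.618 in remaining cells, and LOC770612, an interferon-induced transmembrane protein, at 17.3, 16.6 and 9.66 against 1.88, 2.56 and 2.21. In single cells, MCTP2 was above 0 in 87.7% of members and in 20.0% of cells gated as T-cells, with median scores per cell of 2000 and 2480, and FRY in 80.1% and 9.87%. Monocytes, with a median score per cell of 2403, showed some of these genes about as often as members did: FRY in 75.4%, FCER1G in 49.6% against 48.6% of members, and LOC770612 in 53.5% against 59.6%, while MCTP2 was seen in 24.7%. All 4 of these genes were seen in 46 members (31.5%) and 3 of them in 35, whereas 2 members had none. Among the remaining cells all 4 were seen in 0.883% and none in 42.8%.

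Against all remaining cells, 10195 genes were tested on log2 of the level plus 0.1, after dropping genes whose mean was below 0.05 in both groups. A call needed an adjusted p under 0.05, the same direction in all 3 libraries and 1 per 10000 or more in the higher group, a level that 2351 genes reached. The last limit was set because 2288 of all 3697 genes that passed the test as lower were listed at 0 in the members, whose profiles rest on few cells. Of the 2351, 619 were higher in members (26.3%) and 610 lower (25.9%), and the median log2 difference over them was -0.09.

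The gene with the largest difference was RPS6KA2, on chromosome 3 from 42242486 to 42514551. Its level was 237, 203 and 234 in members and 2.05, 2.67 and 2.04 in all remaining cells, so that each member profile stood far above every other (99.8-fold, log2 difference 6.59 ± 0.14 SE, limma adjusted p = 0.00012). It was above 0 in 144 of 146 members (98.6%, 95.1 to 99.8, Clopper-Pearson) and in 2.42% of T-cells, 13.3% of B-cells and 26.0% of monocytes. In cells with a score, the median was 42.5 in members and 1 in monocytes. The level in members thus came from nearly every cell rather than from a few.

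The next genes by size included secreted, metabolic and cytoskeletal products. CRISPLD2, a secreted cysteine-rich protein, had levels of 7.75, 8.87 and 8.09 in members and at most 0.162 in remaining cells (log2 difference 5.22 ± 0.19 SE, limma adjusted p = 0.00017). ME1, the cytosolic malic enzyme that yields NADPH, had levels of 13.5, 10.4 and 7.64 against 0.172, 0.231 and 0.197. ENAH, an actin regulator of the Ena/VASP family whose span overlaps SRP9, had levels of 8.71, 7.95 and 8.99 against 0.0926, 0.253 and 0.190. These genes showed no overlap between members and remaining cells in any library, but they were picked by the size of this same difference. ATP11A, a phospholipid flippase, was at 31.5, 21.4 and 50.3 against 0.842, 1.11 and 1.14, with the widest spread of them, its highest value being that of library 3. PLAU, the urokinase-type plasminogen activator, was at 4.32, 2.59 and 3.82 against at most 0.0796. REPS2, an endocytosis protein, was at 15.9, 16.0 and 17.5 against 0.463, 0.702 and 0.863, nearly equal in the 3 member profiles. The orphan receptor GPR141, the Rap regulator SIPA1L2, ASPG, ST7 and the serpin SERPINB10B completed the 12 largest, with log2 differences of 4.49, 4.31, 4.25, 4.12 and 4.09. All 12 kept their call under every alternative run for them.

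**Figure D3:**
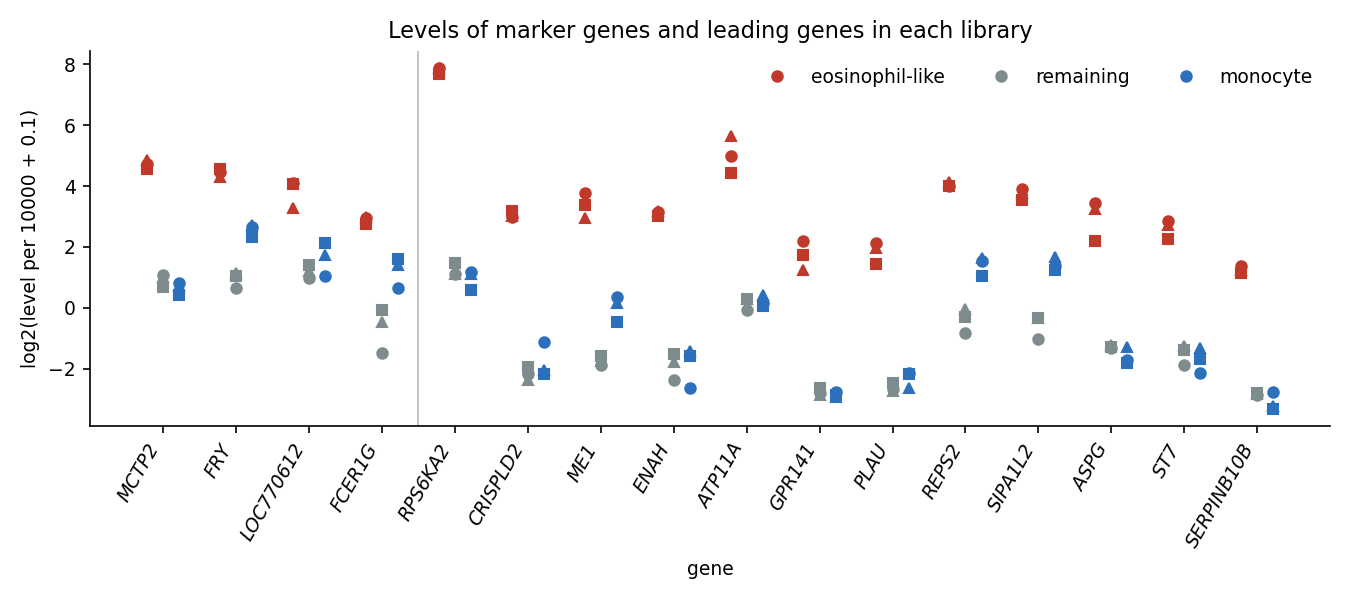
Level of each gene on the scale log2(level per 10000 + 0.1) (y axis) in members, all remaining cells and monocytes, with circles, squares and triangles for libraries 1, 2 and 3. Left of the line are the 4 genes named by the study as associated with eosinophils and not used by the rule, right of it the 12 genes with the largest difference from remaining cells, led by RPS6KA2 at 203 to 237 per 10000; the members lie above both other groups for each gene.

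Several parts of the interleukin-5 receptor pathway were higher in members. Of 30 listed genes 28 were in the files. IL5RA was set aside as a rule gene and 15 were at 1 per 10000 or more in the higher group, of which 9 were higher in members than in all remaining cells and 2 lower (median log2 difference 0.87, beside -0.09 and 26.3% higher over all genes). CSF2RB, the signal-transducing beta subunit on chromosome 1 from 51582967 to 51594940, had levels of 2.27, 1.29 and 2.92 in members and 0.0347, 0.0874 and 0.0748 in remaining cells (log2 difference 3.71 ± 0.36 SE, limma adjusted p = 0.00038). Every member profile was above every other one, yet CSF2RB was seen in 30 of 146 members (20.5%), beside 0.166% of T-cells, and 25 members had both IL5RA and CSF2RB. CSF2RA, the specific subunit of the receptor for granulocyte-macrophage colony-stimulating factor, had levels of 3.07, 4.25 and 4.72 against 0.155, 0.538 and 0.361.

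Of the kinases of the pathway, JAK1, JAK2, LYN and SYK were higher than in the remaining cells, JAK3 was lower, and PIK3CD and PIK3CG did not pass the test. JAK2, which binds the beta subunit, had levels of 13.9, 7.67 and 12.1 against 2.73, 2.87 and 3.01, and JAK1 of 12.1, 12.9 and 13.7 against 5.53, 5.30 and 5.47. LYN, a Src family kinase, was at 27.6, 37.3 and 32.6 against 4.60, 7.43 and 6.79. None of these groups overlapped, and the calls of JAK1, JAK2 and LYN held without each library in turn. That of SYK was lost without library 1 (limma adjusted p = 0.11) and without library 3 (limma adjusted p = 0.095). JAK3, which serves the common gamma chain receptors of lymphocytes, was listed at 0 in the members of all 3 libraries and at 1.28, 1.27 and 1.00 in remaining cells. STAT5A, the transcription factor of this receptor, had levels of 0.512, 0.832 and 1.80 in members and 0.482, 0.532 and 0.492 in remaining cells, and did not pass the test (log2 difference 0.77 ± 0.44 SE, limma adjusted p = 0.21). The count of 9 higher genes was 6 to 7 without each library in turn, 7 with median ratio scaling and 6 among cells with 300 to 900 genes, where SYK and others no longer passed. KK34, a chicken cytokine-like transcript related to interleukin-5, was listed at 0 in the members and at 0.793, 0.978 and 1.09 in remaining cells.

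Of 18 genes listed for lipid mediator synthesis, 11 were under 1 per 10000 in both groups. The other 7 reached that level in the higher group, and 6 of them were higher in members than in all remaining cells. The transporter ABCC1 was lower (median log2 difference of the 7, 1.98). Over all genes at that level 26.3% were higher and 25.9% lower. A gene could reach the level in members alone, as ALOX5 and ALOX5AP did. ALOX5, the 5-lipoxygenase that starts leukotriene synthesis, had levels of 1.83, 2.40 and 2.25 in members and 0.136, 0.186 and 0.199 in remaining cells (log2 difference 3.04 ± 0.22 SE, limma adjusted p = 0.00017). ALOX5AP, the protein that presents arachidonic acid to it, had levels of 2.34, 3.05 and 4.04 against 0.201, 0.373 and 0.342. TBXAS1, the thromboxane synthase, was at 17.1, 17.1 and 20.2 against 3.05, 4.54 and 4.01. The members of every library lay above the remaining cells for these enzymes, and likewise for the phospholipase PLA2G4A and the leukotriene A4 hydrolase LTA4H. LTC4S, the synthase of the cysteinyl branch, was listed at 0 in members and at no more than 0.00935 in remaining cells, so no difference was detectable. ABCC1 was at 0.0732, 0.647 and 1.57 in members, and its call was lost without library 1 (adjusted p = 0.072) and without library 2 (adjusted p = 0.21). Among the 6 higher genes, the transporter ABCC4 lost its call without library 1 (limma adjusted p = 0.086) and without library 3 (limma adjusted p = 0.070).

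Other effector genes gave a mixed picture. Of the phagocyte NADPH oxidase, which makes superoxide, CYBA (the p22-phox subunit) had levels of 13.3, 14.3 and 9.44 against 1.73, 2.28 and 1.77 in remaining cells (log2 difference 2.61 ± 0.21 SE, limma adjusted p = 0.0002). The catalytic subunit CYBB had 0.439, 1.02 and 0.674 against 0.456, 0.872 and 0.672, and was under 1 per 10000 in both groups. The proton channel HVCN1 had 5.71, 5.82 and 2.47 against 1.65, 1.69 and 1.25, and its call was lost without library 1 (adjusted p = 0.16) and without library 2 (adjusted p = 0.15). HVCN1 was above 0 in 41.1% of members and in more of the B-cells, 69.4%. Of 37 genes known for mammalian eosinophil granules and surface, 17 were in the files, and only PTAFR, the receptor for platelet-activating factor, was at 1 per 10000 or more. PTAFR was at 3.15, 3.79 and 3.37 in members, above 0.267, 0.713 and 0.470 in remaining cells, but it did not pass the test against monocytes. EPX, the eosinophil peroxidase of mammals, was listed at 0, 0.185 and 0 in members, and RSFR, a chicken secreted ribonuclease, at 0 in all 3 libraries. Against monocytes RSFR was lower, being at 1.67, 4.34 and 3.15 there. PRG2, CCR3 and others of that list were not analysed here.

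Of the granule exocytosis genes, 6 of 10 at 1 per 10000 or more were higher in members and none was lower (33 of 44 were in the files), with 4 to 7 higher without each library in turn, beside 26.3% of all genes higher. STXBP5, the tomosyn protein that binds SNARE partners, had levels of 49.96, 37.5 and 39.5 against 9.39, 7.11 and 7.61, and UNC13D, a priming factor of granule release, of 1.17, 1.29 and 1.80 against 0.423, 0.502 and 0.447. RAB27A, the small GTPase of granule docking, had 1.54, 1.39 and 1.35 against 0.643, 0.580 and 0.560. In each of these the lowest member profile was above the highest profile of remaining cells. MCTP2 also stands in this list. Of the integrin and adhesion genes, 2 of 10 at 1 per 10000 or more were higher, 3 were lower (ITGA1, ITGB1 and ALCAM) and 5 did not pass, beside 26.3% higher and 25.9% lower over all genes. ITGB3, which forms CD41/61 and is also a thrombocyte marker, was at 1.76, 1.57 and 1.80 against 0.286, 0.562 and 0.544, and did not differ among cells with 300 to 900 genes (log2 difference 0.24, adjusted p = 0.74). The cytoskeletal linker VCL was at 9.73, 7.12 and 9.21 against 2.18, 2.59 and 2.35.

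**Figure D4:**
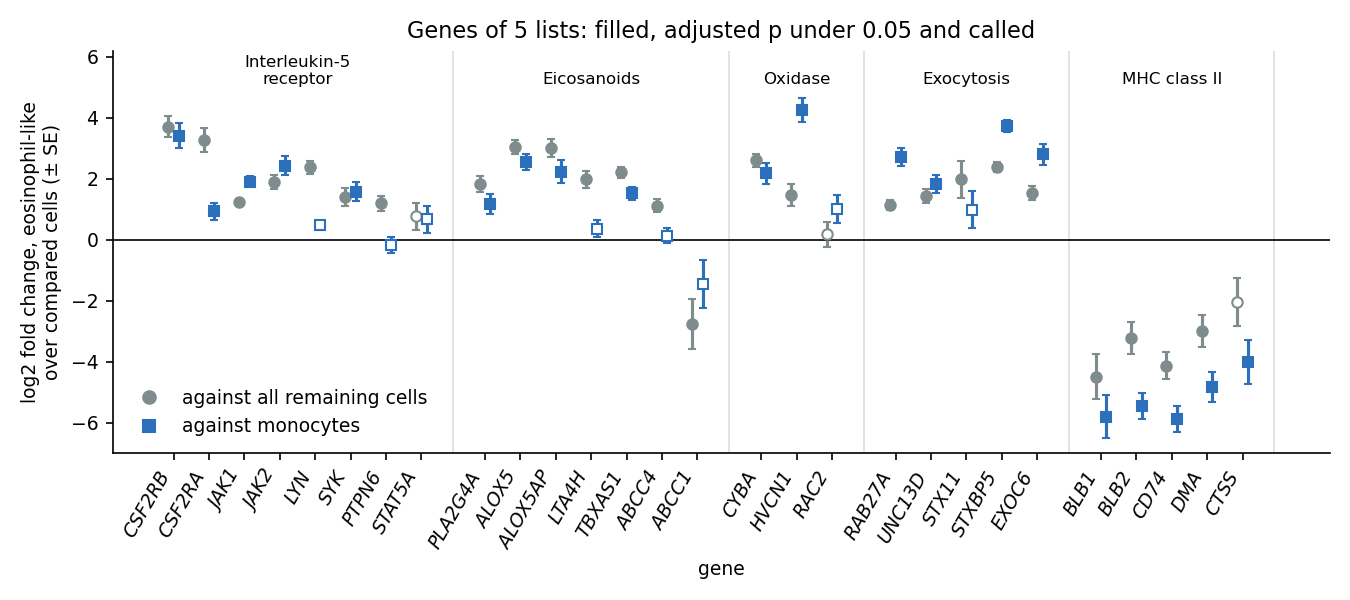
Log2 difference of the level per 10000 plus 0.1 (y axis, bars ± 1 SE) of members over all remaining cells (circles) and over monocytes (squares) for 28 genes of 5 lists. Filled points are called with an adjusted p under 0.05, open points are not; CSF2RB lies at 3.71 and 3.41, and CD74 at -4.13 and -5.87.

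DACH2, the paralog of DACH1 and the only other gene of the retinal determination network at 1 per 10000 or more, was also higher in members. Its level was 13.5, 9.43 and 9.21 in members and 1.55, 1.15 and 0.99 in all remaining cells (8.71-fold, log2 difference 3.02 ± 0.24 SE, limma adjusted p = 0.00019). It was seen in 77 of 146 members (52.7%), in 14.7% of T-cells and in 1.02% of monocytes. The partners EYA1 and EYA2 were listed at 0 in members. Of the genes of phosphoinositide metabolism, 4 of 23 at 1 per 10000 or more were higher and 4 lower (8 and 5 among cells with 300 to 900 genes, and 2 to 3 in each direction without each library in turn), against 26.3% and 25.9% over all genes. PIP4K2A, a phosphatidylinositol 5-phosphate 4-kinase, had levels of 24.4, 20.5 and 32.6 against 5.48, 6.13 and 5.33, and INPP4B, a phosphatidylinositol 3,4-bisphosphate phosphatase, of 22.5, 21.2 and 37.1 against 5.68, 5.30 and 5.14. PLCG1, the phospholipase of T-cell receptor signalling, was seen in library 1 only, at 0.22, against 1.498 to 1.79 in remaining cells.

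Among transcription factors of blood lineages, 5 of 18 at 1 per 10000 or more were higher and 7 lower than in all remaining cells, and 2 higher and 3 lower without library 1. Over all genes 26.3% were higher, a share close to that of this list, and 25.9% were lower. MITF, a factor of mast cells and melanocytes, had levels of 14.6, 18.3 and 15.3 against 3.77, 6.33 and 4.36. SPI1, the myeloid factor PU.1, had levels of 4.24, 4.44 and 7.19 against 1.07, 2.23 and 1.52, and its call was lost without library 1 (adjusted p = 0.053) and without library 3 (adjusted p = 0.074). Both stood above the remaining cells in every library. Against monocytes neither passed the test, and with median ratio scaling both were lower there (limma adjusted p = 0.015 for MITF and 0.034 for SPI1). ETS1, which is abundant in lymphocytes, had levels of 3.80, 4.62 and 2.25 against 12.8, 14.9 and 11.3, and GATA3, of T-cells, was seen in library 2 only, at 0.554, against 3.69 to 4.13. GATA2, the basophil and mast cell factor, was at 0, 0.462 and 0.225 in members and 0.499, 0.705 and 0.611 in remaining cells. GATA1 and CEBPE were not analysed here.

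The genes furthest below the remaining cells included genes of lymphocytes, and 7246 of the 11896 remaining cells were gated as T-cells and 2274 as B-cells. ZBTB20, a zinc finger repressor, THEMIS, a T-cell signalling protein, and PRKCH, a protein kinase C of lymphocytes, were listed at 0 in all 3 member profiles and had 6.04 to 7.11, 4.28 to 6.41 and 2.77 to 4.33 in remaining cells. LDLRAD4, the guanine nucleotide exchange factor TRIO and NDST4 were likewise listed at 0 in members. HDAC9, a class IIa histone deacetylase, was at 0.146, 0 and 0 against 9.44, 9.76 and 7.51. ERC2, NR3C2, KCNQ1, ZNF521 and TSHZ2 completed the 12, with log2 differences from -5.48 to -5.20. In all 12 the highest member profile was below the lowest of the remaining cells, but they were picked by the size of this same difference. Without the minimum on IL5RA and PIP5K1B the call of TRIO was lost (log2 difference -3.00, adjusted p = 0.079), and with the other entry of the library stored under 2 sample names that of KCNQ1 was lost (-3.65, adjusted p = 0.064).

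Markers of T-cells and of antigen presentation were lower in members as well. All 7 T-cell markers at 1 per 10000 or more were lower (5 to 7 without each library in turn), and CD3E was listed at 0 against 2.53, 1.57 and 2.27. The 9 T-cell markers together had a summed level of 3.42 to 5.34 in members and 45.7 to 52.7 in remaining cells. Of the MHC class II presentation genes, 4 of 6 were lower and none was higher (2 to 3 lower without each library in turn). Among cells with 300 to 900 genes, 3 were lower and 1, IFI30, was higher. Over all genes at 1 per 10000 or more 25.9% were lower than in remaining cells. CD74, the invariant chain, had levels of 0.439, 1.02 and 0.449 against 7.59, 18.6 and 12.3 (log2 difference -4.13 ± 0.44 SE, limma adjusted p = 0.00059). The class II beta chain BLB2 was at 0.439, 1.11 and 0.898 against 4.61, 15.5 and 7.21, and its call was at adjusted p = 0.0501 without library 3. The chemokine receptor CXCR4 was at 0.366, 0.0924 and 0.449 against 1.74, 0.722 and 1.29, and was not called without library 1 (adjusted p = 0.17) or library 3 (adjusted p = 0.11). Its call was also lost among cells with 300 to 900 genes (adjusted p = 0.15). The same held with the other entry of the library stored under 2 sample names (adjusted p = 0.068).

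Against monocytes, 9568 genes were tested, and of the 2258 that reached 1 per 10000 in the higher group 745 were higher in members (33%) and 573 lower (25.4%). With median ratio scaling in place of totals, these counts were 473 and 864, while the median log2 difference of all tested genes was -0.47 with totals and -0.70 with median ratio scaling. It was -0.14 with a pseudocount of 0.5 and 0.04 with a filter of at least 0.5, where its sign turned, and over the genes from 1 per 10000 it was 0.28. Of all genes past the test, 26.3% were higher with totals and 15.2% with median ratio scaling. ARHGAP10, a GTPase-activating protein on chromosome 4 from 31562858 to 31691338, led the higher genes, with levels of 22.5, 13.3 and 23.6 in members and 0.0156, 0.0092 and 0.0178 in monocytes (log2 difference 7.40 ± 0.29 SE, limma adjusted p = 9.2e-05). INPP4B was at 0.0938, 0.101 and 0.0654 in monocytes (log2 difference 7.13 ± 0.28 SE) and DACH2 at 0.0625, 0.0368 and 0.0654 (6.11 ± 0.26 SE). RPS6KA2 had 2.14, 1.42 and 2.04 in monocytes, close to its level in all remaining cells (log2 difference 6.86 ± 0.19 SE, limma adjusted p = 3.7e-05).

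The other genes highest over monocytes included genes of nuclear structure, calcium release and lipid sensing. SYNE1, a nuclear envelope spectrin, had levels of 21.8, 20.2 and 21.1 in members and 0.516, 0.285 and 0.303 in monocytes. ITPR1, the inositol trisphosphate receptor that releases calcium, had levels of 9.29, 9.43 and 6.29 against 0.125, 0.0552 and 0.101. GPR34, a lysophosphatidylserine receptor whose span overlaps CASK, had 6.51, 3.97 and 3.82 against 0.0469, 0.0184 and 0. Members and monocytes did not overlap in these genes, nor in SATB1, ZC3H12D, SLMAP, ENAH and LOC419545, which completed the 12 with log2 differences from 4.92 to 5.43. All 12 were picked by the size of this same difference. Of the interleukin-5 list, 5 of 13 were higher (4 without each library in turn) and 1 lower, near the 33% of all genes that were higher. CSF2RB was at 0.0625, 0.0828 and 0.178 in monocytes (log2 difference 3.41 ± 0.41 SE, limma adjusted p = 0.0021), while LYN was at 21.9, 23.0 and 25.1, below the members in every library but without passing the test (0.47 ± 0.16 SE, limma adjusted p = 0.061). CSF2RA passed at adjusted p = 0.038 and not with median ratio scaling (adjusted p = 0.27), nor without library 1, 2 or 3 (adjusted p = 0.079, 0.075 and 0.21).

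Lipid mediator and phosphoinositide genes were in part higher than in monocytes. Of 7 lipid mediator genes 4 were higher and none lower (33% of all genes were higher), with 3 higher under median ratio scaling and 2 to 4 without each library in turn. ALOX5 was at 0.281, 0.248 and 0.333 in monocytes (log2 difference 2.54 ± 0.26 SE, limma adjusted p = 0.0012), and TBXAS1 at 5.001, 5.90 and 8.08 (1.53 ± 0.22 SE, limma adjusted p = 0.0033). LTA4H, at 1.95, 2.22 and 3.16 in monocytes, did not pass the test (0.37 ± 0.27 SE, limma adjusted p = 0.34). Of 19 phosphoinositide genes 10 were higher and none lower (9 higher and 1 lower with median ratio scaling, 7 higher without library 2). HVCN1 was at 0.188, 0.110 and 0.107 in monocytes (log2 difference 4.26 ± 0.40 SE, limma adjusted p = 0.00091), and CYBB, at 1.03, 1.64 and 2.18, was above the members in every library without passing (-1.09 ± 0.40 SE, limma adjusted p = 0.072; with median ratio scaling adjusted p = 0.017). Heterophil markers were lower than in monocytes: all 4 were called, 2 to 4 without each library in turn, beside 25.4% of all genes lower. Their summed levels were 1.83 to 3.42 in members and 24.7 to 58.6 in monocytes. Against remaining cells only NR4A3 was called lower, and among cells with 300 to 900 genes BHLHE40 was called higher in members.

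Genes high in the gated monocytes and outside the rule were far lower in members. VCAN, the proteoglycan versican on chromosome Z from 63371177 to 63477536, was listed at 0 in all 3 member profiles and at 24.4, 20.1 and 22.1 in monocytes (log2 difference -7.80 ± 0.22 SE, limma adjusted p = 3.7e-05). The cytokine IL1B was at 0.293, 0.185 and 0 against 25.9, 17.9 and 10.1, the fatty acid-binding lipocalin EXFABP at 0.22, 0.0924 and 0.225 against 8.03, 27.8 and 22.2, and the calcium-binding S100A6 at 0, 0 and 0.449 against 7.33, 16.2 and 13.02. No member profile reached the lowest monocyte profile of these genes, which were picked by the size of this difference. EXFABP also stands in a list of heterophil granule genes. The study reported high IL1B in the sub-cluster that it took as mainly heterophils. Whether the gated monocytes also held heterophils was not tested. WDFY3, SLC24A4, KCNB2, ANXA2, TRIO, ZBTB20 and LOC121107581 were also among the 12. All 7 MHC class II genes at 1 per 10000 or more were lower (6 to 7 without each library in turn), beside 25.4% of all genes. CD74 was at 25.1, 60.3 and 43.6 in monocytes (67.7-fold lower in members). CSF1R, the receptor of the monocyte growth factor, was at 0.146, 0.370 and 0 against 4.77, 6.40 and 6.58.

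RPS6KA2 and CRISPLD2 stood out across all gated cell classes. RPS6KA2 had a mean level of 225 ± 18.5 (SD, n = 3) in members, then 34.4 ± 13.1 in the 500 cells of no class, which include cells with DACH1 that missed the rule, and 0.239 to 2.10 in the other classes. CRISPLD2 was listed at 0 in basophil-like and red blood cells. CSF2RB was at 2.36, 3.33 and 4.53 in the 55 basophil-like cells, those with CTSG of at least 10, a range that overlapped that of members. INPP4B reached 27.8 ± 6.22 in thrombocytes against 26.9 ± 8.83 in members, which overlapped too. REPS2 was 16.5 ± 0.92 in members and 2.60 ± 0.54 in monocytes.

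**Figure D5:**
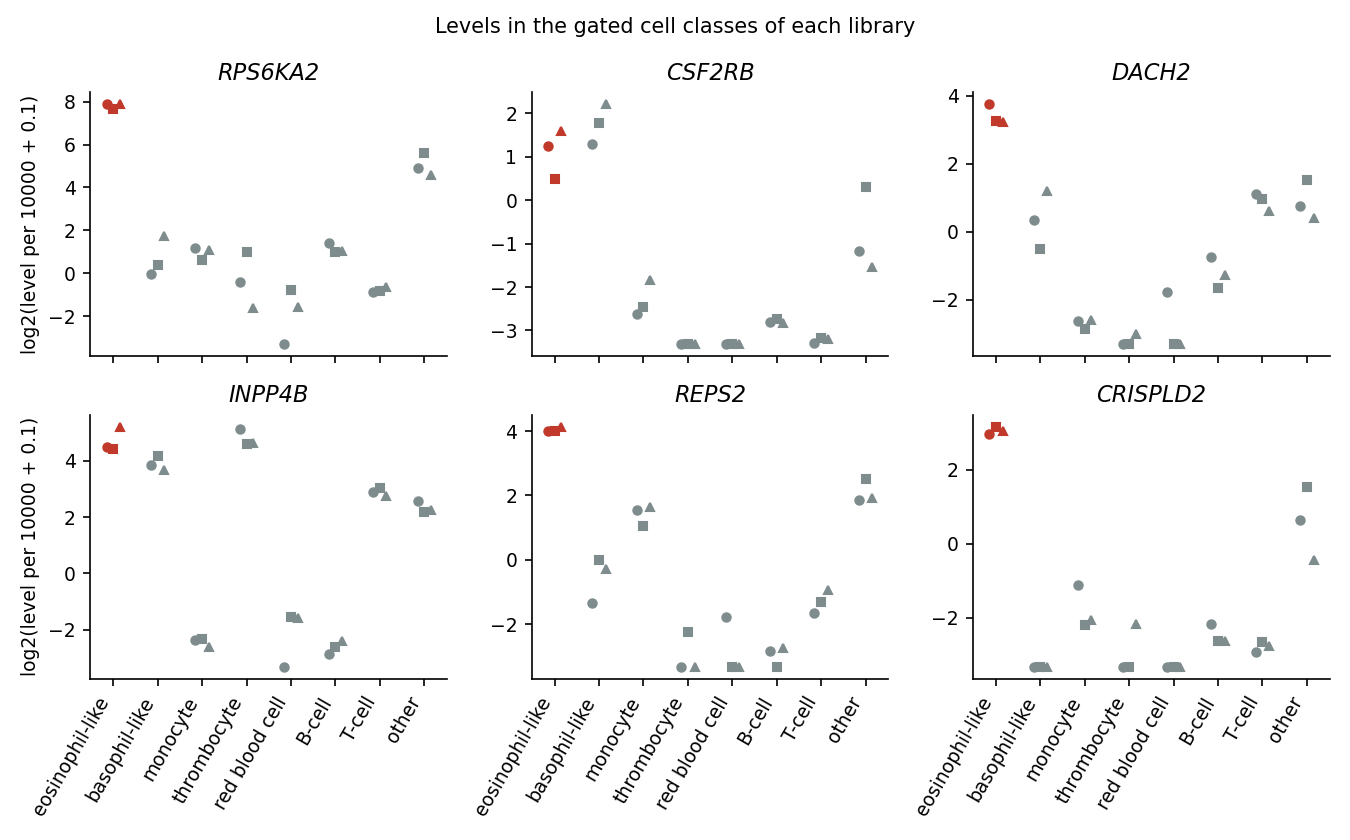
Level of 6 genes on the scale log2(level per 10000 + 0.1) (y axes) in the gated cell classes (x axis), with circles, squares and triangles for libraries 1, 2 and 3 and members in red. RPS6KA2 is at 203 to 237 per 10000 in members and below 4 in each named class, whereas CSF2RB overlaps basophil-like cells and INPP4B overlaps thrombocytes.

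The 3 member profiles were alike for most of the more abundant genes. Across 1664 genes, their Pearson correlations were 0.85 for libraries 1 and 2, 0.75 for libraries 1 and 3, and 0.72 for libraries 2 and 3. Of 337 nuclear genes outside the rule with a mean of at least 5 per 10000, 191 lay within 1.5-fold over the 3 libraries, 6 were over 3-fold apart, and the median coefficient of variation was 19.8%. SH3KBP1, an endocytosis adaptor, had 28.0, 28.8 and 28.1, and ARHGAP15, a Rac regulator, had 81.1, 74.9 and 78.4. The widest spread was that of KDM4C, a histone demethylase, at 3.88, 2.68 and 10.8, where library 3, with 22 cells, was highest. Remaining cells had 3.53, 3.54 and 3.57 for KDM4C, with no such spread. EMB, a cell adhesion glycoprotein, was highest in library 1 at 9.29 and lowest in library 3 at 3.37.

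Markers of other cell types were also seen in members, and their part in the results was not tested. Monocyte markers summed to 2.41 to 7.30 in members and 38.4 to 59.4 in monocytes, with MMR1L4 fixed at 0 by the rule and CD14 and MARCO at 0 as well. Without the genes that define members or monocytes these sums were 0.674 to 1.29 and 6.53 to 8.51, while CSF3R was at 1.61, 5.45 and 3.59 in members and seen in 42 of them. B-cell markers other than the rule genes PAX5 and EBF1 summed to 2.92 to 4.25 in members against 6.57 to 7.02 in remaining cells, with CD79B at 0 in members. BANK1, a B-cell adaptor, was higher in members than in remaining cells, at 3.00, 4.16 and 2.47 against 0.724, 1.10 and 0.721. Thrombocyte markers summed to 1.80 to 2.78 in members and 1.47 to 3.67 in remaining cells, and GP9 was seen in members of library 1 only. Red blood cell markers summed to 4.71 to 6.74 in members, above the 3.37 to 3.94 of remaining cells, and HBBA was seen in 27 members. Basophil markers other than the rule gene CTSG summed to 13.1 to 14.2 in members against 3.67 to 5.33 in remaining cells. Of these, FCER1G and CD63 were called higher, beside 26.3% of all genes. FCER1G is also among the genes that the study associated with eosinophils. HDC, GATA2 and NDST2 were under 1 per 10000 in both groups, and NDST2 was called lower among cells with 300 to 900 genes. Against monocytes only FCER1G was called. Cytolytic markers summed to 0.366 to 1.57 and proliferation markers to 0.366 to 1.35 in members, with TOP2A and CDK1 at 0. Over monocytes, both T-cell markers at 1 per 10000 or more, CD247 and BCL11B, were called higher in members, beside 33% of all genes. The 9 T-cell markers summed to 0.359 to 0.766 in monocytes. For CD3E, CD3D and BCL11B, a summed score of at least 1 was found in 56 members (38.4%), and of at least 2 in 10. Without those 10 members, 598 genes were higher and 595 lower than in remaining cells. Among cells with 300 to 900 genes, where 66, 47 and 19 members were compared with 1364, 584 and 1199 others, 607 were higher and 471 lower.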

How the data were processed

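Single-cell 3′ RNA libraries from the blood leukocytes of 4 hens were read from 1 matrix of 15271 genes and 16936 cells. The deposited values have the unit score: per the study's methods the authors removed doublets, cells over 20% mitochondrial reads or under 300 genes, and haemoglobin-rich cells, and the scores are taken to be SCTransform-corrected, rounded UMI counts, with totals per cell of 1577 to 3004. By the deposited scores the limits do not hold for every cell: mitochondrial shares reach 87.2%, the fewest genes are 281, and 8 members exceed 20%. Barcodes with no sample prefix were taken as library 1 by elimination, since the other 3 entries carry one. Raw depth is therefore unknown, and no count test was run. The labels name Cell Ranger 1.2.0, Seurat and the build GRCg7b, whereas the methods of the study name a later version of Cell Ranger. Use of strand in counting is not given in the sources used here.

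Scores were summed per library and group (members 136698, 108200 and 44517), scaled to 10000 and compared on log2(level + 0.1) with limma 3.58.1 (R 4.3.3; trended variance, Benjamini-Hochberg adjustment over all genes tested), without a hen block. Single values were compared by exact permutation tests (scipy 1.17.1), likewise without pairing by hen. Each adjusted p is limma's and rests on n = 3 libraries, so it measures the spread between them. The steps were tested on simulated data, with results given for remaining cells, then monocytes. Of unchanged genes under 1 per 10000, 689 and 294 were called lower, so counts of lower genes that include this range are uncertain. From 1 per 10000, 6 and 0 unchanged genes were called lower, and 9 and 0 of any level higher. Falls by 1 on the log2 scale were recovered in 26% and 4%, larger falls in 44% and 42%. Rises by 1 were recovered in 42% and 18%, larger rises in 98% and 94%. A gene that did not pass may therefore still differ. Both groups of a library come from 1 hen, which pairs them, although the correlations of paired deviations were only -0.0083, 0.044 and 0.026 (remaining cells) and -0.0079, 0.033 and 0.0058 (monocytes).

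Named genes were the 12 with the largest differences per direction and comparison that were called and not in a rule, and members of gene lists; 1 of them is not reported here. Genes singled out for their spread between libraries were chosen after their values were seen. The members and lists were chosen with earlier results of these data known. Gene positions are from RefSeq GRCg7b, where 15209 names matched. Other gates were CTSG of at least 10 for basophil-like cells and HBBA of at least 10 for red blood cells. Alternatives were other rule limits, scalings, filters and pseudocounts, a hen block, and leaving out each library, cells over 20% mitochondrial scores or members with T-cell scores. The alternatives that were chosen after seeing the data are no IL5RA and PIP5K1B minimum, remaining cells without DACH1, and cells with 300 to 900 genes.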

Additional observations from a re-analysis of the deposited data

How the results depend on the processing

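No named gene that was called changed direction, but the median log2 difference of all tested genes against monocytes turned from -0.47 to 0.04 with a filter of at least 0.5. The share of eosinophil-like cells had a mean of 1.07% to 2.00% under other rule limits and of 1.01% to 1.79% without each library in turn. Against all remaining cells, the count of all genes lower (3697) was 1035 with a filter of at least 0.5 and 6320 with no filter. Against monocytes it was 910 with a filter of at least 0.5 (2643 as reported), and the counts from 1 per 10000 were 473 higher and 864 lower with median ratio scaling. The filter of at least 0.5 moved the share of higher calls from 17.2% to 41.4% against remaining cells and from 26.3% to 50.8% against monocytes, since it tests fewer low genes.

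Without each library in turn, the genes from 1 per 10000 that were lower than in remaining cells numbered 387 (without library 2) to 532, with 399 without library 1. Against monocytes, all genes higher numbered 581 (without library 2) to 707, and genes from 1 per 10000 that were lower 349 (without library 2) to 412. With the replicate block, which pairs the groups of each hen, 604 genes were higher and 3295 lower against remaining cells, and 797 and 2388 against monocytes. Among named genes and listed genes, the block changed the test or call of LY86, PLCB1, STX11, TLR4, SH2B3, TFEC and PIK3R5 against remaining cells and of PLA2G4A (adjusted p = 0.0598), TGFB1 and CEBPB against monocytes. Over all alternatives, single genes kept direction and side of the threshold 3432 times and did not 166 times. The cause of these changes was not tested. The 22 members of library 3 and the few genes per member limit what low genes can show.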
